A study of Mus musculus with 4 samples.

Results

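Neural ectoderm-like cells of day 6 gastruloids were examined by single-cell RNA sequencing. Gastruloids are aggregates of mouse embryonic stem cells that form embryo-like axes and tissues in culture. All cells came from the Zx1 embryonic stem cell line with a wild type genotype, so that a single line stands for the genotype. The aggregates received a Wnt agonist early in culture and bFGF, VEGF and ascorbic acid from day 4, a medium chosen by the study to promote cardiac and cardiopharyngeal development, and each library pooled at least 8 gastruloids. Libraries were made on days 4 to 6 and on day 11 with a droplet method that counts unique molecular identifiers (UMIs), 1 UMI being 1 captured transcript. There was 1 library per day, so no difference between cells or days has a replicate check, and every interval given is a 95% interval of counting error only.

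A day 6 cell was taken as a member if it had at least 2 UMIs of *Sox2*, at least 2 UMIs summed over *Sox1*, *Sox3* and *Pax6*, under 3 UMIs of *T* and under 3 UMIs of *Pou5f1*. Only cells with 2000 or more UMIs and a share of mitochondrial transcripts under 20% were considered. Of the 6628 barcodes of the day 6 library, 5850 met these limits, and 403 of them were members (6.89%, Clopper-Pearson interval 6.25 to 7.57%). The other 5447 cells of day 6 were the comparison. Because measured transcripts chose the members, the contrast between members and other cells is a description of what was chosen.

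*Sox1*, *Sox2* and *Sox3* encode the SoxB1 transcription factors that hold neural precursors in a dividing, undifferentiated state. *Pax6* encodes a paired homeodomain factor of the neural tube and forebrain. In the embryo the neuroepithelium is patterned along the head-to-tail axis by Hox genes and the Cdx genes that precede them, and along the dorsoventral axis by BMP and Wnt signals from the roof plate and hedgehog from the floor plate. Notch signalling between neighbouring cells keeps most of them as progenitors, while a few express proneural factors and become neurons. The caudal end of the axis holds neuromesodermal progenitors, which carry *T* together with *Sox2* and feed both spinal cord and paraxial mesoderm.

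The genes of the rule lie on separate chromosomes in the GENCODE vM21 annotation of GRCm38: *Sox2* at chr3:34650405-34652461 on the plus strand, *Sox1* at chr8:12395295-12400126 on the plus strand, *Sox3* at chrX:60891366-60893430 on the minus strand and *Pax6* at chr2:105668900-105697364 on the plus strand. *Sox2* counts ran from 2 to 60 UMIs among the members with a median of 9, against 0 to 38 with a median of 0 in the other cells. *Sox3* had a median of 3 and a maximum of 14 UMIs, *Sox1* a median of 1 and a maximum of 8, and *Pax6* a median of 1 and a maximum of 18. *Sox3* was the SoxB1 gene seen most widely after *Sox2*: 35 members had no *Sox3* UMI, whereas 159 had no *Sox1* and 150 had no *Pax6*. All 3 genes were present together in 124 members, *Sox1* and *Sox3* without *Pax6* in 95, *Sox3* and *Pax6* without *Sox1* in 101, and *Sox3* alone in 48. At the edge of the rule, 30 members had exactly 2 *Sox2* UMIs and 54 had a sum of exactly 2. Just outside it, 18 cells failed only because *Sox2* stood at 1 UMI and 73 failed only because the sum stood at 1. Of the 429 cells that met both neural limits, 24 were left out for *T* and 2 for *Pou5f1*. *T*, the brachyury gene, reached 29 UMIs among the other cells, and *Pou5f1*, the pluripotency factor Oct4, reached 78.

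**Figure D1:**
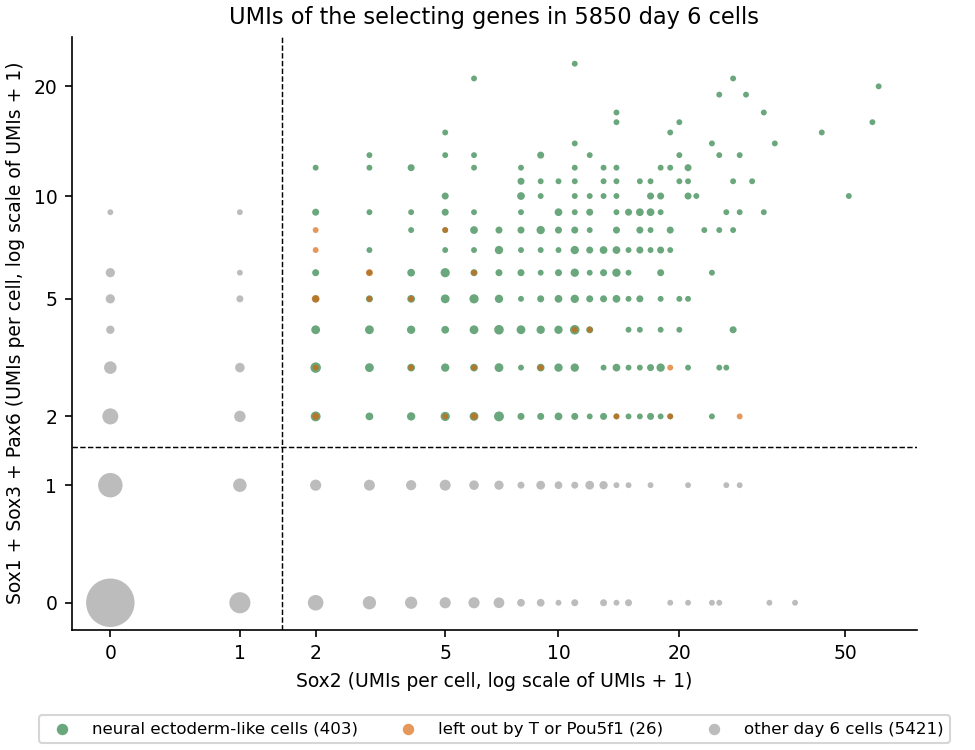
UMIs of *Sox2* (horizontal axis) and of *Sox1*, *Sox3* and *Pax6* summed (vertical axis) in the 5850 day 6 cells within the limits, both on a log scale of UMIs plus 1. Points grow with the number of cells at each pair of values, and dashed lines mark the limits of the rule. The 403 members lie at or above 2 UMIs on both axes, and the 26 orange cells above both limits had 3 or more UMIs of *T* or *Pou5f1*.

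The members were deeper than the rest, which a rule based on UMI minimums favours: their median total was 40361 UMIs (9790 to 186730) and 5955 genes, against 24820 UMIs and 4913 genes in the other cells. Median mitochondrial shares were 2.93% and 2.83%. A doublet score, the share of simulated cell pairs among a cell's nearest neighbours, placed 70 members (17.4%) in the library's top 8%, against 7.31% of the other cells. Of the members, 13 also met limits set for cardiomyocytes and 17 those set for endothelial cells, and 329 remained once these and the top doublet scores were left out, a choice made after seeing the data. The day 6 library shared 5, 19 and 16 barcodes with those of days 4, 5 and 11, and 1 of the day 5 matches was a member. Shares of cells are given after each cell was thinned to 5000 UMIs, which kept all 403 members and 5332 of the other cells. As a measure of free RNA, the same shares were taken in 310 cardiomyocyte-like cells (*Tnnt2* and *Myh6* plus *Myh7* each at 10 or more UMIs, median 28440.5 UMIs) and 446 endothelial-like cells (*Cdh5*, *Pecam1* and *Esam* summing to 5 or more, median 36566.5 UMIs). Cells that met the limits of both sets, or the neural rule, were left out of these sets. Expression is given as CPM, the UMIs of a gene summed over a set of cells and scaled to 1000000. A gene was called higher where the ratio of CPM plus 10 between sets was at least 2 and lower where it was 0.5 or less, among genes with 10 CPM or more in either set.

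Genes of neural progenitors that the rule did not use were high in the members. Of 24 tested genes of a list of 26 neural progenitor factors, 14 were called higher and 0 lower, and without the genes of the rule the count was 10 of 20. Over all 8358 genes tested, 1.38% were called higher and 3.15% lower. The median log2 ratio was 0.95 over the 20 genes the rule did not use and 1.21 with those it used, against -0.02 for all genes. In the 329 members without cardiac, endothelial or high doublet-score cells, 12 of the 20 were called higher and 1 lower. *Hes5*, a Notch effector that represses neuronal genes, reached 39 UMIs in a member with a median of 2, and had at least 1 UMI in 292 members and in 229 of the other cells. Its pooled level was 100.5 CPM against 4.07, a ratio of 24.7 (22.6 to 27.1). *Pou3f2*, a POU factor also known as Brn2, had a median of 2 UMIs and stood at 60.8 against 1.60 CPM, 37.9-fold (33.1 to 43.6). After thinning, *Hes5* was detected in 37.5% of members, 1.20% of other cells, 0% of cardiomyocyte-like and 0.673% of endothelial-like cells. The corresponding shares for *Pou3f2* were 27.5%, 0.713%, 0.325% and 0%. Both genes were found in the members at shares far above those of the cardiomyocyte-like and endothelial-like cells, although their counts overlapped with single cells outside the rule. Cells that met the neural rule had been left out of those sets, which favours low shares there.

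The zinc finger genes *Zic1*, *Zic2* and *Zic5* stood at 48.7, 21.4 and 24.8 CPM in the members and at 2.27, 2.74 and 2.46 in the other cells. *Sox21*, a SoxB2 gene that opposes the SoxB1 factors, was at 29.1 against 0.913 CPM, and *Pou3f3* at 26.7 against 1.87. *Irx3*, a homeobox gene of the intermediate neural tube, had a pooled ratio of 2.10 (76.2 against 36.3 CPM). Other members of the list were shared with the surrounding tissue: *Nr2f1* (106.5 against 111.1 CPM), *Meis2* (187 against 239), *Sox9* (27.8 against 38.8) and *Nr2f2* (68.2 against 144.2). These 4 genes are also used by mesodermal and mesenchymal cells, and none of them passed the call in either direction.

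Among 21 tested neuroepithelial genes, 4 were called higher and 0 lower, and in the 329 members 7 of 22 were higher and 2 lower. *Crabp2*, which carries retinoic acid in the cytoplasm, had a median of 30 UMIs and a maximum of 221 in the members, against 1 and 75 in the other cells. It stood at 757.6 against 99.8 CPM, 7.59-fold (7.42 to 7.77). *Crabp2* was found in 89.8% of thinned members, and in 16.6% of cardiomyocyte-like cells. Whether the UMIs in the latter were free RNA or expression was not tested. *Fabp7*, the brain fatty acid binding protein of radial progenitors, was uneven: its median was 1 UMI and its maximum 152, with no UMI in 151 members. It stood at 175.7 against 12.8 CPM, 13.8-fold (13.0 to 14.6), and was seen in 35.5% of thinned members against 0.974% of cardiomyocyte-like and 0.448% of endothelial-like cells. *Nes*, the intermediate filament nestin, was at 47.0 against 15.1 CPM and *Crabp1* at 215.9 against 93.2. *Cdh2* and *Ncam1*, adhesion molecules of neural and cardiac tissue, differed less, at 112 against 86.4 and 121 against 86.7 CPM. *Vim*, vimentin, was at 919 CPM in the members and 1554 in the other cells.

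**Figure D2:**
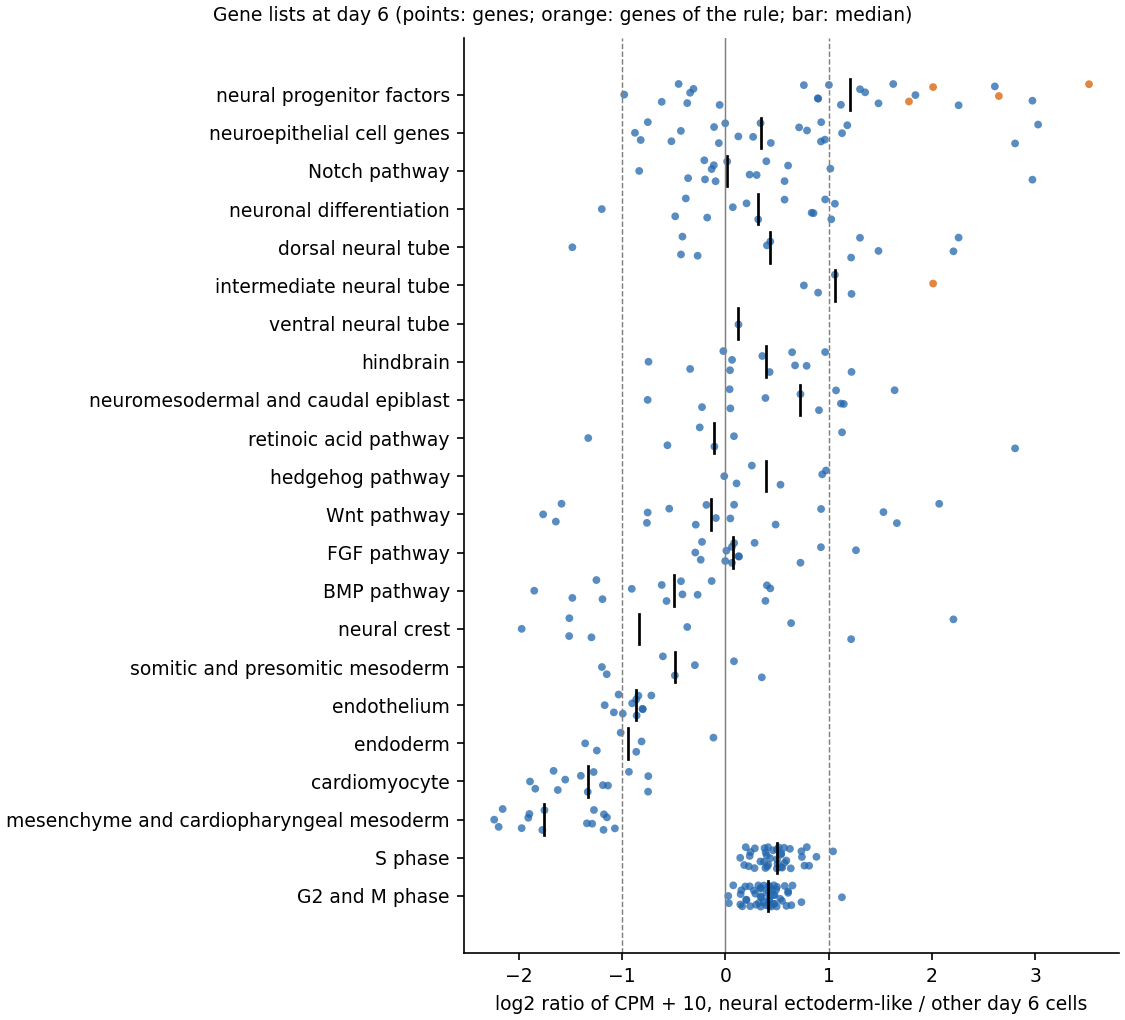
Log2 ratio of CPM plus 10 between the members and the other day 6 cells, 1 point per tested gene, in rows by gene list, with a bar at the median of each list, orange for genes of the rule and dashed lines at the limits of a call. Neural progenitor factors, genes of the rule included, centre at 1.21, and the mesenchymal and cardiopharyngeal list centres at -1.75.

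Outside the lists, the leading genes included several of the nervous system. *Fam181b* was at 123.7 against 6.14 CPM, *Fez1*, which acts in axon outgrowth, at 64.2 against 2.29, and *Rfx4*, a factor of neural tube cilia, at 34.8 against 0.592. *Pantr1*, a long noncoding RNA next to *Pou3f3*, was at 93.0 against 3.98 CPM, and *Mir124-2hg*, the host transcript of a neuronal microRNA, at 36.1 against 1.26. *Ccnd1*, cyclin D1, was at 423 against 102 CPM, with a median of 15 UMIs in the members and 0 elsewhere. The beta-globin gene *Hbb-bs* was also among the leading 20 at 32.4 against 1.49 CPM, but its UMIs came from 3 members, of which 1 held 608. The genes furthest in the other direction were *Dlk1* (131.5 against 701.6 CPM), which encodes a Notch-like membrane protein of mesenchyme and endoderm, *Rgs5*, *Asb4*, *Slc38a4* and *Capn6*, together with the cardiopharyngeal factors described below.

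Among Notch genes the targets *Hes5* and *Nrarp* were higher in the members, while no ligand, receptor or other effector passed the call over all members. Of 15 tested Notch genes, 2 were called higher (*Hes5* and *Nrarp*) and 0 lower, with a median log2 ratio of 0.02. *Nrarp*, which encodes a feedback inhibitor of the Notch transcription complex, was at 36.3 against 12.9 CPM, 2.82-fold (2.58 to 3.08), and was found in 17.4% of thinned members and 4.11% of the others. The ligand gene *Dll1* was at 14.3 against 5.97 CPM and present in 90 members. *Notch1* was at 39.0 against 29.7, *Rbpj*, the DNA-binding partner of cleaved Notch, at 42.9 against 50.7, and *Hes1* at 90.6 against 66.4. *Hey1*, a target used in vessels and heart, had a ratio in the other direction (16.4 against 37.1 CPM) without passing the call, and was called lower in the 329 members (12.1 against 37.3). The 250 bases before the annotated starts of 3 genes known to respond to Notch are shown because all 3 were called higher in the members. They are from RefSeq GRCm38.p6, all on the plus strand: *Hes5* at chr4:154960673-154960922, *Fabp7* at chr10:57784673-57784922 and *Nrarp* at chr2:25180508-25180757. Capitals mark TGGGAA, the core recognised by RBPJ, or its reverse complement TTCCCA, searched on both strands.
Hes5: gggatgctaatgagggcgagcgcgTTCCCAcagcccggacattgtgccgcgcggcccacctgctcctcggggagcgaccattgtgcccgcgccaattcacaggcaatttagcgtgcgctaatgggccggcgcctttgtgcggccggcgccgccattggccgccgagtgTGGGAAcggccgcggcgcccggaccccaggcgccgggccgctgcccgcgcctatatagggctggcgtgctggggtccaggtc
Fabp7: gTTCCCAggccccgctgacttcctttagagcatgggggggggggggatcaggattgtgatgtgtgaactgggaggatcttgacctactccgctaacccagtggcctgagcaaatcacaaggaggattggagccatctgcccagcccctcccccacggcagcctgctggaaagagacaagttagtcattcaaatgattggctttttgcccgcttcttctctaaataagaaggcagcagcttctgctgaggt
Nrarp: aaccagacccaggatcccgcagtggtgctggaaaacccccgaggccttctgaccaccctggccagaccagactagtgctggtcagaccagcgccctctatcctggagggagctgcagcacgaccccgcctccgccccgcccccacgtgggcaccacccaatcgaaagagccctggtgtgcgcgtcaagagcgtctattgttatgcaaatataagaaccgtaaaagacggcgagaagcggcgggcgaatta
The *Hes5* stretch held 2 matches, on the minus strand at 226 and on the plus strand at 82 bases before the start. *Fabp7* held 1, on the minus strand at 249 bases, and *Nrarp* held 0. The motif occurred in 21.6% of 32851 promoter stretches of this length, and at least 2 matches in 2.77%. A match describes the letters in this window and does not show a bound site.

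Few genes of neuronal differentiation were called higher, and the proneural genes *Neurog1* and *Neurog2* were seen in few cells. Of a list of 38 genes, 13 reached the level tested, 2 were called higher and 1 lower, and in the 329 members 3 were higher. *Rtn1*, a reticulon of differentiating neurons called higher, was at 20.8 against 5.13 CPM and seen in 212 members. *Hes6* and *Elavl2*, which were not called, had a UMI in 277 and 238 members. *Neurog1*, proneural factor of sensory and dorsal interneuron precursors, was at 10.2 against 0.333 CPM but came from 37 members. *Elavl4*, the neuronal RNA-binding protein HuD, was at 14.4 against 3.52 CPM. Its UMIs were seen in 141 members, mostly at low counts. *Tubb3*, the neuronal tubulin, was found in 67 members and 66 other cells, with maxima of 40 and 66 UMIs. The called lower gene was *Cbfa2t3* (5.10 against 24.6 CPM), which is also active in blood and endothelium. *Sox11* stood at 431 and 409 CPM in the 2 sets. Of 29 neuron subtype factors 6 were tested, 0 were called higher and 3 lower. In the 329 members 4 were lower: *Isl1* (3.11 against 39.3 CPM), *Tbx20* (0.683 against 26.8), *Phox2a* (1.06 against 16.9) and *Lhx2* (0.531 against 15.8). The study counts *Isl1* and *Lhx2* among genes of cardiopharyngeal mesoderm.

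Dorsal genes of the neural tube were more widespread than ventral ones. Of 11 tested dorsal genes, 5 were called higher and 1 lower, with a median log2 ratio of 0.44. Those called higher were *Zic1*, *Zic2*, *Zic5*, *Pax3* and *Pax7*. The Zic genes among them were also counted with the progenitor factors above, so the lists are not separate. *Pax3*, a paired factor of the dorsal neural tube that also marks somites and crest, had a median of 2 and a maximum of 23 UMIs and was present in 297 members. It was at 68.7 against 7.03 CPM, 9.78-fold (9.02 to 10.6). *Pax7*, its paralogue, was at 14 against 0.302 CPM in 124 members against 40 other cells. *Msx1*, a target of BMP in the dorsal tube, was at 53.2 against 36.7 CPM without passing the call, and *Bmp4* itself was the gene called lower (14.5 against 58.6 CPM). In the intermediate list, 2 of 4 tested genes that the rule did not use were called higher, among them *Gbx2* at 21.9 against 3.66 CPM. Of 14 ventral genes, 1 reached the tested level and 0 were called. *Nkx6-1* was present in 53 members, *Foxa2* in 24, *Olig2* in 11 and *Shh* in 7. At least 3 UMIs summed over *Pax3*, *Pax7*, *Msx1* and *Zic1* were found in 310 members (76.9%), and the same minimum over 6 ventral genes in 32 (7.94%), with 19 members in both sets and 80 in neither. These shares are not given for the other day 6 cells.

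The members carried a trunk Hox code and almost no anterior brain transcripts. At least 3 UMIs of Hox groups 4 to 9 were present in 397 of 403 members (98.5%), and no member lacked Hox transcripts altogether, so that a planned comparison with Hox-negative members had no cells. Hox transcripts were also common in the other day 6 cells, for which the share over groups 4 to 9 together is not given. Without thinning, group 4 had a UMI in 99.3% of members and 78.5% of the others, and group 9 in 97.3% and 46.5%. After thinning the shares were 64.5% and 38.8% for group 4, and 80.9% and 27.6% for group 9. By the ratio of CPM, groups 6, 7, 9 and 10 differed most from the other cells. Group 9 stood at 386 against 137 CPM, 2.82-fold (2.75 to 2.90), and group 10 at 220 against 46.2, 4.76-fold (4.58 to 4.94). Group 2, by contrast, was at 121 against 115 CPM. Groups 12 and 13 were at 0.0531 and 0.743 CPM. The group 10 level came mostly from *Hoxc10* (chr15:102966796-102971893, plus strand), at 164.5 against 30.1 CPM and 5.47-fold (5.23 to 5.73), with a median of 3 and a maximum of 75 UMIs. Its exons overlap those of *Hoxc5* on the same strand, so reads of these genes may not be fully separate. *Hoxb9* was at 162 against 48.6 CPM and was present in 385 members, whereas *Hoxd9* was at 26.0 against 31.6. Within the groups the clusters thus differed, and 10 single Hox genes of groups 4 to 10 from clusters A, B and C, with *Hoxd4* of cluster D, were called higher. After thinning, group 10 was found in 43.2% of members and 7.95% of the others.

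**Figure D3:**
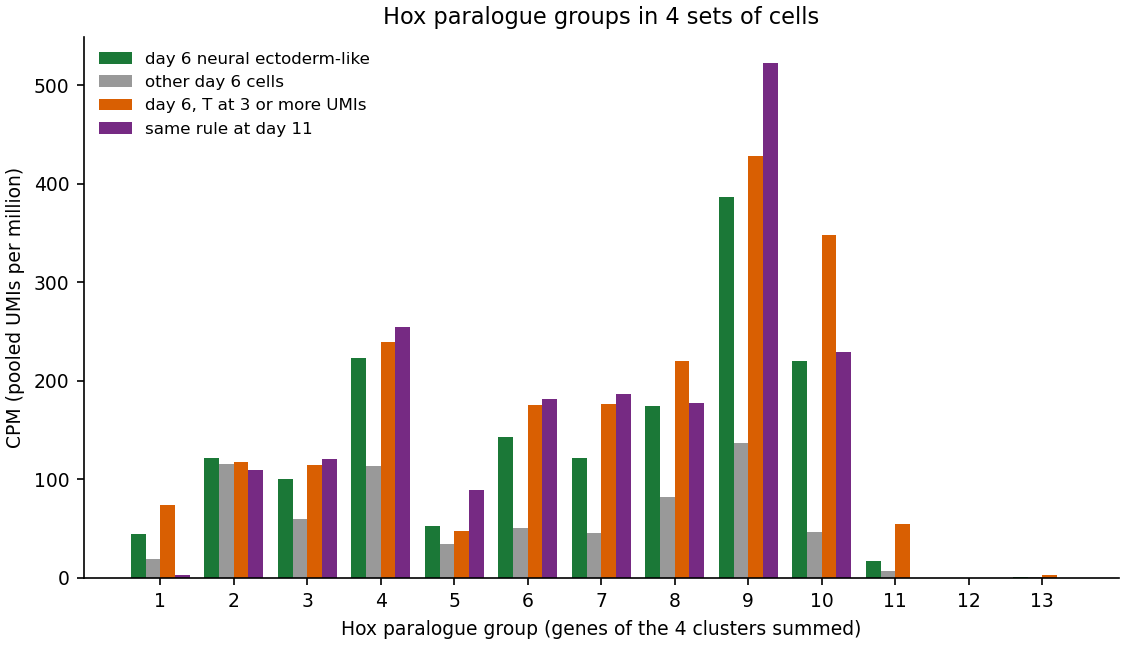
Bars give CPM (vertical axis, from 0) of each Hox paralogue group (horizontal axis) in the members, the other day 6 cells, the day 6 cells with 3 or more UMIs of *T*, and day 11 cells that met the same rule. Group 10 stood at 220, 46.2, 348 and 229 CPM in these sets in that order, and groups 12 and 13 were near 0 in each.

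*Otx2*, which marks forebrain and midbrain, was found in 0 of 403 thinned members, which allows a share of up to 0.744% of cells with an *Otx2* UMI at that depth and sets no limit on cells that express it. Without thinning 1 member had it, at 10 UMIs. *Six3*, a forebrain factor, was at 0.106 CPM. Of 21 forebrain genes 2 were tested and 0 were called higher. The isthmus list gave 2 of 5 tested genes higher and the hindbrain list 1 of 12, the former through *Gbx2* and *Sp8*, which are not particular to the isthmus.

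Caudal genes were present in the members at levels below those of *T*-expressing cells. Of 11 tested genes of the neuromesodermal and caudal epiblast list, 4 were called higher than in the other day 6 cells and 0 lower, with a median log2 ratio of 0.73. *Cdx2*, which activates caudal Hox genes, was at 68.6 against 25.5 CPM and *Cdx4* at 20.2 against 4.36. *Cdx2* was found in 17.9% of thinned members, against 1.95% of cardiomyocyte-like and 1.35% of endothelial-like cells. *Epha5*, an ephrin receptor, was at 41.5 against 6.52 CPM. The 117 day 6 cells with 3 or more *T* UMIs, at a median of 47354 UMIs per cell, gave a second comparison. *T* separated these sets by choice, so genes that go with *T* were likely to differ. Against them 11 of 16 tested genes of the caudal list other than *T* were called lower in the members and 0 higher, where 0.947% of 8022 genes were lower and 0.86% higher. *T* was set by the rule (4.09 against 139 CPM). *Fgf8*, the caudal growth factor, was at 13.2 against 246, *Fgf17* at 20.1 against 157, *Rspo3*, which amplifies Wnt signals, at 24.8 against 460, and *Cdx2* at 68.6 against 224. *Cyp26a1*, which degrades retinoic acid at the tail end, was at 8.02 against 64.7 CPM. The somite clock gene *Hes7* (9.93 against 201 CPM) and the presomitic factor *Tbx6* (0.743 against 39.3) were among 6 of 8 somitic genes called lower. So were 3 of 6 endoderm and 4 of 7 surface ectoderm genes. The part of other cell types in the *T*-expressing set was not tested.

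In the same comparison 10 of 20 progenitor factors that the rule did not use were called higher and 1 lower. *Sox2*, used by the rule, was at 230 against 54.4 CPM, *Hes5* at 100.5 against 24.1, *Pou3f2* at 60.8 against 8.81, *Irx3* at 76.2 against 14.4 and *Crabp2* at 758 against 106. Outside that list, *Wnt4* was at 49.8 against 4.79 and *Fam181b* at 123.7 against 8.34 CPM. Hox groups 4 and 9 were near each other in the sets (224 and 239 CPM, 386 and 428 CPM), and group 11 was at 16.9 in the members against 54.2 in the *T*-expressing cells.

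Signalling genes differed pathway by pathway. In the retinoic acid list 2 of 7 tested genes were called higher, *Crabp1* and *Crabp2*, and 1 lower, *Rdh10*, which makes retinaldehyde (6.26 against 30.8 CPM). The synthesising enzyme gene *Aldh1a2* was at 11.3 against 10.1 CPM. The Wnt list had 3 genes higher and 3 lower of 16. *Sfrp2*, a secreted Wnt modulator of the neural tube, was at 219 against 44.5 CPM and present in 376 members, *Wnt4* at 49.8 against 8.92 and the receptor gene *Fzd10* at 38.9 against 6.91. The related inhibitors *Dkk1* (3.56 against 30.7), *Sfrp1* (44.7 against 161) and *Sfrp5* (8.02 against 51.2) were the 3 called lower. Of 14 FGF genes, 1 was called higher and 0 lower: *Fgf15*, a growth factor of the neural tube, at 18.5 against 1.87 CPM. Among 14 BMP genes, 0 were higher and 4 lower, including the pseudoreceptor *Bambi* (66.9 against 267), the inhibitor *Smad7* (28.5 against 81.5) and *Bmp2* (4.78 against 23.7). *Id3*, a direct BMP target, went the other way without passing the call, at 747 against 563 CPM. No hedgehog gene of 6 tested was called over all members, and *Gas1* and *Boc* were called higher in the 329. Their median log2 ratio was 0.40, with *Gas1*, a hedgehog co-receptor, at 181 against 87.4 CPM, *Boc*, another, at 21.1 against 6.25, and the receptor and target *Ptch1* at 63.6 against 40.9. *Shh* was at 1.59 CPM.

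Cell cycle transcripts were more abundant in the members. The summed S phase list had a median of 4644 CPM per member, against 2408 in the other cells and 4427 in the *T*-expressing cells. For the G2 and M phase list the medians were 9007, 3350 and 7699 CPM. Single genes stayed mostly within the call: 1 of 40 S phase genes, *Rrm2* (309 against 145 CPM), and 1 of 52 G2 and M genes, *Cdca8* (326 against 144), were called higher and 0 lower. The median log2 ratios of the lists were 0.50 and 0.41. *Pcna*, the replication clamp, was at 314 against 177 CPM. Members also had more UMIs per cell, and the part of depth in these sums was not tested. In the stress list 1 of 14 genes was called higher (*Chac1*, 15.8 against 2.21 CPM) and 3 lower, among them the immediate early genes *Fos* (8.81 against 39.0) and *Jun* (31.1 against 74.8).

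Genes of other lineages were lower in the members. All 15 tested genes of the mesenchymal and cardiopharyngeal list were called lower, and their sum had a median of 40.2 CPM per member against 1259 per other cell. *Hand2*, *Prrx2*, *Gata6* and *Pdgfra* were at 23.6, 30.5, 32.6 and 8.02 CPM in the members and at 149, 176, 180 and 57.6 in the others. In the cardiomyocyte list 10 of 13 genes were lower, with *Tnnt2* at 112 against 377, *Ttn* at 105 against 418 and *Myl7* at 440 against 1123 CPM. The cardiac sum was uneven, with a median of 61.2 and a maximum of 40243.2 CPM in a member. Thinned shares were low: *Tnnt2* was found in 8.69% of members, 99.7% of cardiomyocyte-like and 5.83% of endothelial-like cells, and *Myl7* in 12.9% of members and 12.8% of endothelial-like cells. In the 329 members without cardiac, endothelial or high doublet-score cells, the pooled cardiac sum was 61.7 CPM instead of 1293, *Tnnt2* was at 4.93 against 367 and *Myl7* at 18.3 against 1064, and all 13 cardiac and 11 endothelial genes tested were called lower. *Cdh5*, vascular cadherin, was then at 0.379 against 42.1 CPM. Of 8 neural crest genes 4 were lower (*Snai1*, *Snai2*, *Twist1* and *Ets1*), and the 2 higher ones were *Pax3* and *Pax7*, which belong also to the dorsal tube. *Sox10*, which defines migrating crest, was at 0.531 CPM. In the surface ectoderm list 3 of 6 genes were lower, and 5 of 6 in the 329 members, with *Krt8* at 18.1 against 83.8 CPM, and *Epcam* was at 13.9 against 32.0. *Dppa5a*, the 1 gene called lower of 5 in the pluripotency list, was at 0.584 against 42.3 CPM. Over all 403 members 3 of 11 endothelial, 3 of 6 endoderm and 2 of 7 somitic genes were called lower in the members and 0 higher. None of 10 tested adhesion and polarity genes was called over all members, and *Cdh11* (12.5 against 35.7 CPM) and *Epcam* (10.8 against 32.7) were called lower in the 329. The 1 tested haematopoietic gene was called in neither set.

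The members differed among themselves along Hox group 10, a split chosen after seeing the data. At least 3 group 10 UMIs were present in 219 members (54.3%), none in 149 (37.0%), and 1 or 2 in the remaining 35. The group 10 cells were deeper, with a median of 45350 UMIs against 30509. Between these sets, 39 of 7971 genes (0.489%) were called higher in the group 10 cells and 69 (0.866%) lower, group 10 genes being set by the choice. Of the caudal list 6 of 13 genes were higher and 0 lower. *Cdx2* had a median of 2 and a maximum of 35 UMIs in the group 10 cells, where 77.2% held it, against 12 of 149 cells and a median of 0 in the cells without group 10. It stood at 103 against 8.75 CPM. *Fgf17* was at 32.1 against 0.365 CPM, found in 69 and 2 cells. *Cdx4* was at 30.3 against 2.74, *Fgf8* at 18.4 against 3.28 and *Wnt5a* at 60.8 against 14.2. *Lin28a* and *Sall4*, genes of early undifferentiated cells, were at 73.3 against 18.1 and 70.9 against 28.3 CPM. *Hoxd9* was at 37.4 against 4.38 CPM, while *Hoxb9* was at 119 against 250.

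Several progenitor and dorsal genes were higher in the cells without group 10. *Fabp7* had a median of 10 UMIs in them and 0 in the group 10 cells, at 463 against 43.6 CPM. *Hes5* had medians of 5 and 1 UMIs, at 168.5 against 66.6 CPM. *Msx3*, a dorsal homeobox gene, was found in 76 of 149 cells without group 10 and in 11 of 219 with it, at 47.0 against 1.72 CPM. The brain creatine kinase *Ckb* (627 against 74.9 CPM), *Pax6* (77.1 against 23.5), *Zic1* (99.9 against 26.1), *Pax7* (36.3 against 3.69), *Dll1* (30.1 against 6.78) and *Sox9* (59.1 against 13.9) followed the same direction. In all, 7 of 23 progenitor factors, 4 of 15 neuronal and 4 of 13 dorsal genes were called lower in the group 10 cells. The dorsal subset made up 92.6% (87.2 to 96.3%) of the cells without group 10 and 67.6% (61.0 to 73.7%) of those with it, and the ventral subset 0.671% (0.0170 to 3.68%) and 11.9% (7.90 to 16.9%). When each member was first thinned to 5000 UMIs and split by presence of group 10, into 174 and 229 cells, 26 genes were higher and 71 lower, of which 24 and 35 were among those called before. *Cdx2* was then at 121 against 22.3 and *Fabp7* at 49.0 against 287 CPM. Among the 181 and 118 cells left without cardiac, endothelial or high doublet-score members, 37 of the 39 higher and 65 of the 69 lower genes were called again.

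**Figure D4:**
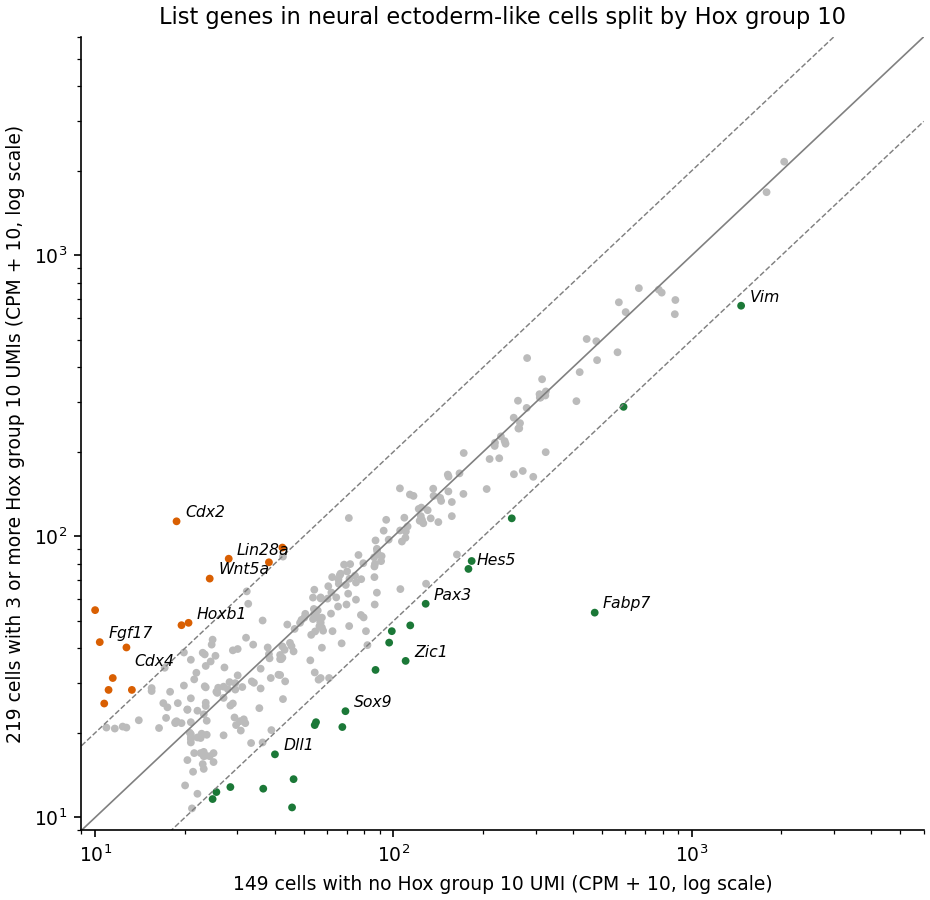
CPM plus 10 of list genes in members with 3 or more UMIs of Hox group 10 (vertical axis, 219 cells) and members with none (horizontal axis, 149 cells), on log axes, 1 point per gene, coloured where called, with dashed lines at the limits of a call. *Cdx2*, at 103 against 8.75 CPM, and *Fgf17* lie on the side of the group 10 cells, and *Fabp7*, at 43.6 against 463 CPM, and *Hes5* on the other.

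The ventral subset of 32 members was compared with the 291 that were dorsal and not ventral. Of 8006 genes, 74 (0.924%) were called higher and 33 (0.412%) lower. The genes that define the subsets differed by choice, such as *Nkx6-1* (62.8 against 2.16 CPM) and *Foxa2* (61.8 against 0.223). Among genes that did not define them, *Ptch1* was at 212 against 44.0 CPM, *Nkx2-9*, a floor plate region factor, at 14.6 against 0.818, *Neurog2* at 20.9 against 4.39 and the motor neuron factor *Mnx1* at 11.2 against 0.0744. *Ptch1* was present in all 32 ventral cells, with a median of 10 UMIs against 1, but *Nkx2-9* in 6, *Neurog2* in 10 with at most 10 UMIs, and *Mnx1* in 6 with at most 7. *Fabp7* was at 26.8 against 232 CPM, *Pax6* at 8.27 against 46.2 and *Crabp1* at 76.4 against 245. Without *Foxa2*, which defined the subset, 5 of 7 tested endoderm genes were also higher, as were 5 of 6 surface ectoderm genes: *Epcam* was at 95.8 against 4.16 CPM, *Krt18* at 85.6 against 5.87, *Cldn6* at 40.4 against 0.818 and *Spink1* at 44.8 against 0.372. *Epcam* and *Cldn6* each came from 8 of the 32 cells and *Spink1* from 3. Cardiac *Myl3*, in 4 cells, was at 202 against 6.02 CPM. In the 27 and 238 cells left after removal of cardiac, endothelial and high doublet-score members, *Myl3* was at 2.69 against 3.52 and *Spink1* at 7.39 against 0.533, while *Epcam* was at 59.8 against 4.90 and *Krt18* at 26.9 against 1.92. *Nepn*, at 100.8 against 0 CPM there, came from at most 3 cells. The part of endodermal cells in the ventral set was not tested. Of the 74 higher genes 29 were called again in the smaller set, and of the 33 lower ones 30.

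The neurogenic subset, with 3 or more UMIs over 7 genes of young neurons, held 40 members (9.93%). Most of its cells entered through *Elavl4*, which 36 of them held at a median of 3 UMIs. Of 7995 genes 35 (0.438%) were called higher than in the other members and 5 (0.0625%) lower, and 12 of 21 tested neuronal genes were higher, the defining genes among them. Among genes that did not define the subset, *Btbd17* was at 73.1 against 6.59 CPM, *Gadd45g*, a growth arrest gene of neuronal precursors, at 82.3 against 13.8, *Nhlh2* at 21.3 against 0.181, *Tubb3* at 38.3 against 5.74 and *Dll1* at 48.8 against 9.55. These levels came from few cells, with *Nhlh2* in 7, *Dll1* in 11 and *Tubb3* in 12 of the 40. *Dll3* was at 29.2 against 3.51 CPM and *Hes6*, which opposes Hes repressors, at 85.8 against 37.8. *Hes5* was present in 28 of the 40 cells. *Myl3* (182 against 16.8 CPM) and *Spink1* (35.3 against 1.03) were also higher, but without cardiac, endothelial and high doublet-score members they stood at 2.63 against 3.34 and 0.658 against 1.37, whereas *Btbd17* was at 104.7 against 7.63 and *Dll1* at 68.5 against 10.5. Among the 33 and 296 cells left there, 19 of the 35 higher genes and 5 of the 5 lower ones were called again. The neurogenic share was 25% (11.5 to 43.4%) in the ventral subset, 8.94% (5.92 to 12.8%) in the dorsal cells that were not ventral, 11.0% (7.15 to 15.9%) with Hox group 10 and 6.71% (3.27 to 12%) without it. Median totals were 55888 UMIs in the ventral subset and 39821 in the dorsal cells that were not ventral. A minimum of 3 UMIs is easier to meet in deeper cells, and the part of depth in these shares was not tested.

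Applied to the other libraries, the same rule found 16 of 7202 cells at day 4 (0.222%, 0.127 to 0.361%), 8 of 7408 at day 5 (0.108%, 0.0466 to 0.213%) and 335 of 8730 at day 11 (3.84%, 3.44 to 4.26%). The day 11 cells were shallower, with a median of 19782 UMIs, so a minimum of 2 UMIs was harder to meet there. With the rule applied to cells thinned to 10000 UMIs, shallower cells left out, the order of the days reversed, at 2.41% for day 6 and 3.08% for day 11. This left out a larger part of the day 11 cells, whose median was 12082 UMIs within the limits, against 25581 at day 6. The cells of the rule at day 11 were deeper than the others of that day (median 19782 against 11870 UMIs), so these shares are of unlike sets. The few day 4 cells held *Lin28a* at 153 CPM, *Sox2* at 203 and *Pax6* at 1.72. Against the other cells of their own day, the day 11 cells had 4.33% of 8942 genes higher and 6.34% lower. Of 7971 genes tested on both days, 79 were higher in the cells of the rule at day 6 and at day 11, which is 74.5% of the 106 called at day 6 and 23.5% of the 336 called at day 11, where 4.22% of all these genes were called. For lower genes the shared number was 185, or 75.2% of the day 6 and 42.6% of the day 11 calls. Of all these genes 5.445% were called lower at day 11. The same 4 genes chose the cells on both days. *Sema3a* and *Crabp1*, named after their values were seen, were called higher at day 6 and lower at day 11.

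Set directly against the day 11 cells of the rule, the day 6 members had 126 of 8403 genes (1.5%) higher and 349 (4.15%) lower. In the caudal list 7 of 11 genes were higher at day 6 and 0 lower. *Cdx2* was at 68.6 CPM at day 6 and 0.327 at day 11, *Cdx4* at 20.2 and 0, and *Hoxb1* at 29.0 and 0.436. Genes of early progenitors were also higher at day 6: *Lin28a* (54.7 against 0.873 CPM), *Sall4* (55.8 against 0.764), *Prtg* (126 against 13.5), *Trim71* (64.2 against 7.20) and *Hmga2* (371 against 124). Of the progenitor factors that the rule did not use 10 of 21, and of the neuronal genes 17 of 24, were lower at day 6 than at day 11. *Fabp7* had a median of 1 UMI at day 6 and 45 at day 11, at 176 and 2207 CPM. *Hes5* was at 100.5 and 437 CPM, *Tubb3* at 9.71 and 105, *Msx3* at 17.5 and 221 and *Bcl11a* at 1.65 and 90.1. Of the genes of the rule *Sox2* was at 230 and 490 CPM, *Sox3* at 66.1 and 80.3, *Pax6* at 40.7 and 73.1, and *Sox1* at 26.2 and 17.2. Hox groups 4 and 9 remained the main Hox level at day 11 (255 and 523 CPM), and group 1 was at 44.6 and 2.62. Group 10 was at 220 CPM at day 6 and 229 at day 11, and was found in 43.2% and 63.7% of thinned cells. Cardiac and stress transcripts also differed between the sets, with *Myl7* at 440 and 1546 CPM and *Fos* at 8.81 and 50.1, and their part was not tested. The day 6 matrix was written by software version 3.1.0 and the day 11 matrix by 6.0.1. *AC160336.1*, a gene with no known role, was at 536 CPM at day 6 and 3.05 at day 11. Day of culture, library and software version cannot be told apart here.

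**Figure D5:**
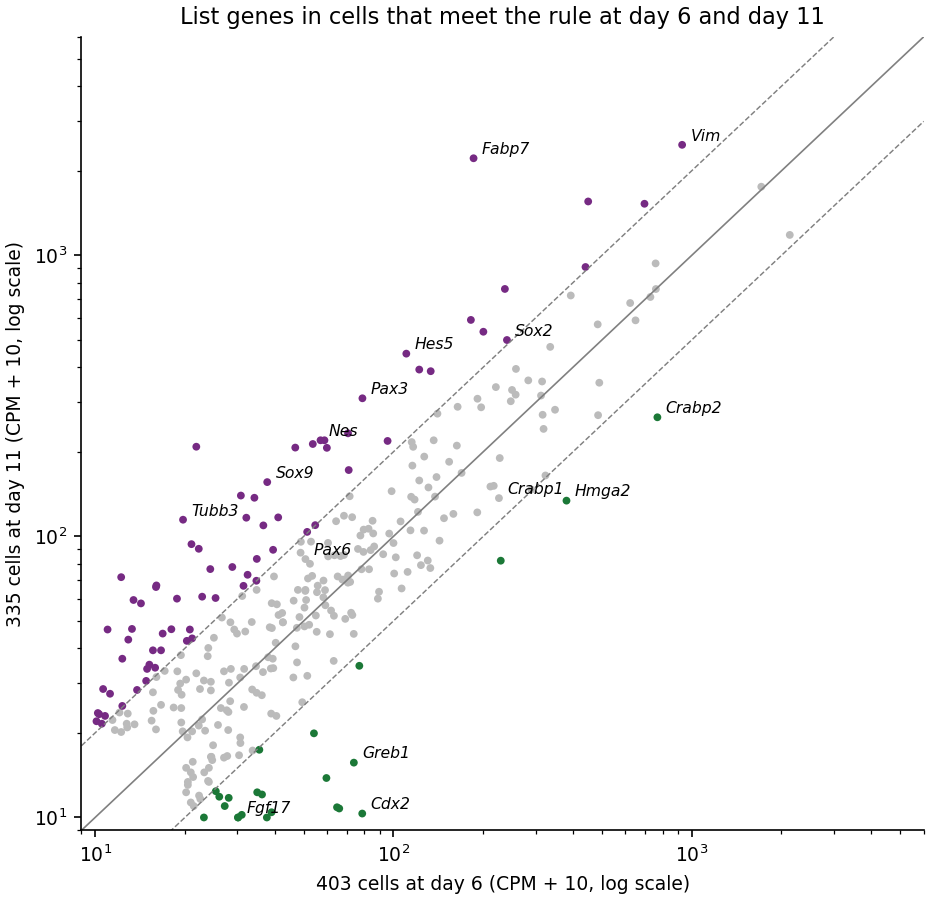
CPM plus 10 of list genes in the day 6 members (horizontal axis, 403 cells) and in the day 11 cells of the same rule (vertical axis, 335 cells), on log axes, 1 point per gene, coloured where called, with dashed lines at the limits of a call. *Cdx2* and *Greb1* lie on the day 6 side, and *Fabp7* at 176 and 2207 CPM and *Hes5* on the day 11 side.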

How the data were processed

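Per the labels, single-cell libraries of dissociated gastruloids were made with a 10X Genomics Chromium 3' kit (v3.1), and the submitters' processing notes name Cell Ranger 3.1.0 and the mm10 build. The authors deposited UMI counts per gene and cell without normalization, with barcodes already called as cells, and these counts were used as deposited. From the deposited counts, CPM, percentages and ratios were derived here. CPM here is the unit, not cardiopharyngeal mesoderm. The day 6 library held 182150138 UMIs.

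The members, the gene lists and the subsets were chosen with earlier results of these data known. Counts were summed over the cells of a set, and ratios of raw CPM carry exact conditional binomial intervals (shares Clopper-Pearson). With 1 library per day no test was made. Genes named were those of the rule, list members by level and ratio, every Hox group, and the 20 highest and 10 lowest genes of 20 CPM or more outside mitochondrial and ribosomal genes. Genes of subset comparisons were named by largest ratio or list membership. Doublet scores came from simulated cell pairs in 30 components of 2000 variable genes, and no cell was removed by them in the reported values unless stated. The pipeline was checked on simulated data. Python 3.11.15, numpy 2.4.6, scipy 1.17.1, pandas 2.3.3 and scikit-learn 1.9.0 were used. A share of 0 was given the limit that 3 cells would set. The counting alternatives listed in the closing section covered the rule, depth, doublets, the number added to CPM and the averaging of cells. Some genes of the lists are counted in them but not reported here by name.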

Additional observations from a re-analysis of the deposited data

Results flagged for a closer look

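*Crabp1*, the gene of a cytoplasmic retinoic acid binding protein, stood apart because its direction differed between days. The ratio of CPM plus 10 between the cells of the rule and the other cells was 2.189 at day 6 (215.9 against 93.2 CPM) and 0.407 at day 11 (126.9 against 326.3 CPM). Each day had 1 library, and the difference was not tested.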

How the results depend on the processing

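No paired analysis was possible because each day had 1 library and no result came from a test. The rule with 3 UMIs in place of 2 gave shares of 5.59% of cells at day 6, 0.0694% at day 4, 0.0270% of the day 5 cells and 2.62% of the day 11 cells. The rule applied to cells thinned to 10000 UMIs gave 2.41%, 0.0283%, 0.0142% and 3.08% at days 6, 4, 5 and 11, which turned the order of days 6 and 11. Shallower cells were left out there, a larger part of them at day 11 than at day 6. Without the 8% of cells with the highest doublet scores the day 6 share was 6.19%. Without limits on *T* and *Pou5f1* the shares at days 4 and 5 were 1.18% and 0.243%. The number added to CPM set the count of called genes: with CPM plus 1 it was 233 higher and 631 lower, with 5 neuronal genes higher, and with CPM plus 50 it was 20 and 45, with 2 progenitor factors and 0 neuronal genes higher. The mean of per-cell CPM gave 408 lower genes. Cells without the top doublet scores gave 477 lower genes, and members also without cardiac and endothelial limits, an alternative chosen after seeing the data, gave 174 higher and 545 lower. With 3 UMIs in the rule 1 neuronal gene was higher. The share of members with Hox groups 4 to 9 was 96.8% at 5000 UMIs, 93.1% at 3000 UMIs, and 91.3% with 2 UMIs for a positive cell. In the other day 6 cells, group 4 alone was found in 38.8% and group 9 alone in 27.6% at 5000 UMIs. Their share for groups 4 to 9 together is not given and cannot be lower than that of group 4. The single-group shares are therefore not a like comparison for the 96.8%. The *Otx2* share was 0 under each alternative tried, a floor that says nothing of stability. Depth limits statements on genes seen in few members, such as *Shh* and *Olig2*, and the lack of a second library limits every comparison.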
